A study of Mus musculus with 6 samples.

Results

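The sustained response to tobacco smoke is described here as the genes whose log2 ratio of smoke to control had the same sign on all 6 arrays of the series. Of 11138 named genes, 743 (6.67%) met this rule. Of these, 361 (3.24%) were positive on every array and 382 (3.43%) were negative on every array. A positive value is taken to mean likely higher after smoke, because every label names the smoke-exposed RNA first and lists it in channel 1. The direction of the ratio, the dyes and any turning of the dye-reversed arrays are not stated in the sources used here.

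The arrays compared RNA of sorted endothelial cells from mice exposed to tobacco smoke with RNA of sorted endothelial cells from control mice, 2 channels to an array. The 1-week group has 3 arrays of 1-week smoke against control, replicate 1 being labelled a dye reversal, and the age of its controls is not given. The 6-week group has 3 arrays. Replicates 1 and 2 set 6-week smoke against 1-week control, replicate 2 being the dye reversal of that comparison, and replicate 3 sets 6-week smoke against 6-week control. The tissue of origin, the sorting markers, the strain, sex and age of the mice and any pooling of animals are not given in the sources used here. The arrays against 1-week control may share control RNA, and the labels do not say which arrays came from separate animals. The p-values below thus measure the spread between arrays, with 6-week replicates 1 and 2 first averaged to 1 replicate. They leave out the spread inside that pair. With ratios alone, the level of endothelial markers in either channel could not be checked.

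Endothelial cells line every blood vessel. They hold a barrier through junction proteins, lay down the collagen IV sheet of the basement membrane, set vessel tone through peptides and lipid mediators, and read blood flow through transcription factors such as Klf2 and Klf4. Tobacco smoke carries aryl hydrocarbons, which act through the aryl hydrocarbon receptor on genes such as Cyp1a1 and Cyp1b1, and oxidants, to which cells respond through the factor NRF2 and its glutathione and redox genes.

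Between 6.76% and 12.6% of features per array were listed at a fold of 1.00, which has no sign. A gene is kept out of the rule where its spots average to 0 on an array, which a single spot at 1.00 need not cause. Paired spots of a gene correlated at r = 0.21 to 0.42 within an array. Across the 11138 named genes, the dye-swap pair of the 6-week group correlated at r = -0.03, and the 2 dye-reversed arrays, which belong to different exposure times, correlated at r = 0.27, the highest value of any pair. These are descriptions over genes, which are not independent. Because both dye reversals stand apart in this way, the counts of all members, of all genes that passed and of the larger gene lists are also given with the sign of these arrays turned or without them.

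Members that were large on every array were found mainly with the deposited signs. At any size, 743 genes had 1 sign on all 6 arrays as deposited, 465 with the 6-week dye reversal turned, 306 with the 1-week one turned and 708 with both turned. With a log2 size over 0.25 required on every array, these counts were 125, 9, 9 and 44. With a size over 0.5 they were 29, 0, 1 and 4. The 29 genes comprised 20 positive and 9 negative genes. At the edge of the sign rule lay Draxin, positive on every array with a smallest value of 0.0043, and Uqcrq, negative on every array with 6-week replicate 3 at -0.00045. Just outside it lay 2700062C07Rik and 1700025H01Rik, each listed at 0 on 1 array and of 1 sign on the rest.

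**Figure D1:**
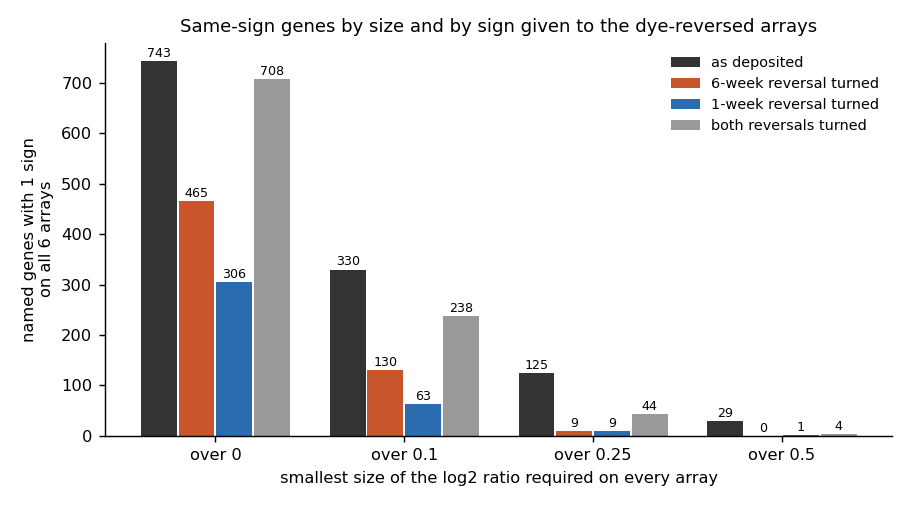
Bars give the number of named genes with the same sign on all 6 arrays (vertical axis) when a smallest log2 size over 0, 0.1, 0.25 or 0.5 is required on every array (horizontal axis), for the deposited signs and for 3 ways of turning the dye-reversed arrays. At any size the deposited signs gave 743 genes and turning both reversals gave 708, whereas over 0.5 they gave 29 and 4.

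Unnamed features, which carry no gene symbol in the probe table, met the rule less often: 134 of 8104 did (1.65%), and 14 of the last 5550 features on the array (0.252%). Leaving out anything with a value of 0 on some array, 3.50% of named genes were positive throughout and 3.71% negative, against 2.49% and 2.72% of unnamed features. Named genes average at least 2 spots, which these shares do not correct for. Where all spots of a gene lay within 1 log2 unit of each other on all 6 arrays, termed agreeing spots here, 484 of 5625 genes had 1 sign throughout (8.6%), 236 positive (4.2%) and 248 negative (4.41%). Among the remaining 5513 genes 259 did (4.7%). Every single spot carried the gene's sign in 210 of the 743 members, 103 positive and 107 negative.

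The typical member moved little. The median of the mean over both times, each time weighted equally, was 0.42 on the log2 scale for the positive and -0.41 for the negative genes, with ranges of 0.07 to 2.51 and -1.31 to -0.10. Over all named genes the median was -0.01, and the median size whatever the sign was 0.14. Members were picked for 1 sign, so the distance of their medians from -0.01 follows in part from the rule. The mean passed 1 in 24 positive genes and -1 in 7 negative genes. No gene passed an adjusted p of 0.05 with limma and Benjamini-Hochberg adjustment over all 19242 named genes and unnamed features, the smallest adjusted p being 0.199, while 1215 (6.31%) had an unadjusted p under 0.05. Limma without moderation of the variance passed 3 and its robust form 0.

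Fitted on the 5625 genes with agreeing spots alone, limma passed 103 genes (1.83%), 66 positive (1.17%) and 37 negative (0.658%). Of these, 88 had 1 sign on all 6 arrays, 57 positive and 31 negative. The sign rule and the fit use the same values, so that overlap supports nothing. The 5625 genes were chosen by spot spread on the same 6 arrays, and 0 genes passed in the fit of all features. All adjusted p-values below, and every gene said to have passed, come from the agreeing-spot fit unless stated. These calls rest on the sign of the dye reversals and on a single array: 0 genes passed with the 6-week reversal turned, with both turned, or without 6-week replicate 3 (650, 397 and 493 had an unadjusted limma p under 0.05), 25 passed without 1-week replicate 3, 51 without 1-week replicate 2, and 37 passed with the dye-reversed arrays left out, 33 of them among the 103.

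The genes farthest from 0 on every array were all positive. Cpe encodes carboxypeptidase E, which trims basic residues from peptide hormone precursors. Its log2 ratios were 2.03, 2.06 and 2.56 in 1-week replicates 1 to 3 and 2.31, 2.61 and 3.15 in 6-week replicates 1 to 3. No array was below 2, the highest was 6-week replicate 3, and the mean of both times was 2.51 ± 0.17 (SE, 5 replicates), or 5.70-fold. Its 2 spots differed by 1.06 on 1-week replicate 3, where they read 3.09 and 2.03, so Cpe lies just outside the agreeing-spot fit. In the fit of all features its limma adjusted p was 0.199. Without the dye-reversed arrays its mean was 2.52.

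Coch encodes cochlin, a secreted matrix protein best known from the inner ear. It gave 2.16, 1.34 and 2.57 at 1 week and 2.0, 2.48 and 1.95 at 6 weeks, overlapping between times. Its mean was 2.06 ± 0.18 (SE), or 4.17-fold (limma adjusted p = 0.00237). The fitted means at 1 week and 6 weeks, 2.02 and 2.10, differed by 0.07 ± 0.36 (SE, limma adjusted p = 0.992). Ephx2 encodes soluble epoxide hydrolase, which breaks down vasodilating epoxy fatty acids made by endothelium. Its values were 1.81, 1.26 and 2.0 at 1 week and 2.52, 1.81 and 1.19 at 6 weeks, a mean of 1.68 or 3.22-fold. One of its spots on 6-week replicate 3 was listed at 0 and the other read 2.39, so it too stayed outside the agreeing-spot fit.

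Other members past a log2 size of 1 on every array were a receptor and a transcriptional regulator. Calcrl encodes the calcitonin receptor-like receptor, which binds adrenomedullin and calcitonin gene-related peptide on vessels. It read 1.20, 1.24 and 1.00 at 1 week and 1.94, 1.18 and 1.50 at 6 weeks, with a mean of 1.34 ± 0.11 (SE, limma adjusted p = 0.00237). Tsc22d3 encodes GILZ, a leucine zipper protein induced by glucocorticoids. Its values were 1.24, 1.04 and 1.56 at 1 week and 1.16, 1.30 and 1.08 at 6 weeks, with a mean of 1.22 ± 0.12 (SE, limma adjusted p = 0.00355). The arrays of both times overlapped for both genes, and their means without the dye-reversed arrays were 1.42 and 1.21.

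**Figure D2:**
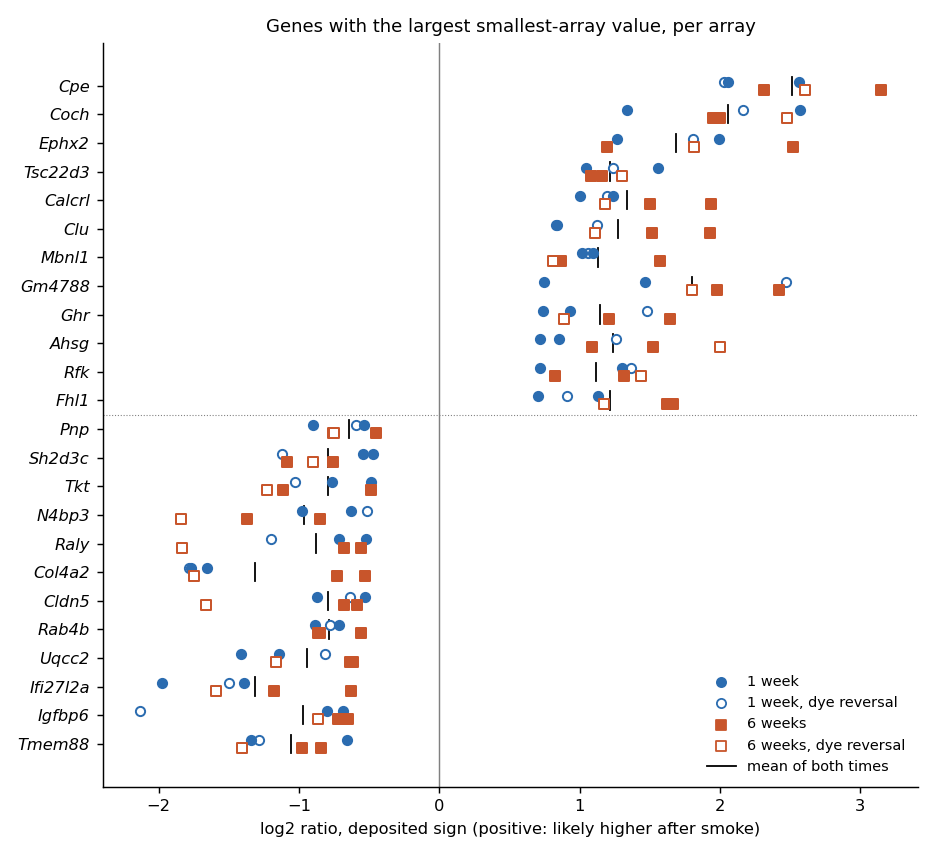
Each row is a gene and each point its log2 ratio on 1 array (horizontal axis), with circles for 1-week and squares for 6-week arrays, open symbols for dye reversals and a black bar for the mean of both times. The 12 positive and 12 negative genes shown have the largest value on their smallest array; Cpe lies above 2 on every array, while the negative genes lie between 0 and -2.14, with Igfbp6 on the 1-week dye reversal the lowest.

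Clu, which encodes the secreted chaperone clusterin, ranged from 0.83 to 1.93 over the arrays (mean 1.28 ± 0.13 SE, limma adjusted p = 0.00371). Ghr, the growth hormone receptor, ranged from 0.74 to 1.65 with a mean of 1.14, and its spots did not agree. Bmp4, a bone morphogenetic protein ligand, ranged from 0.62 to 1.45 (mean 0.96, limma adjusted p = 0.00788) and was the only member among 31 measured genes of the TGF-beta and BMP list. That list thus had 3.23% positive, against 3.24% of all named genes. Edn1, encoding the vasoconstrictor endothelin-1, was positive on 5 arrays and -0.10 on 1-week replicate 2, so it is no member, although its mean of 0.90 passed (limma adjusted p = 0.0481). It is named after its values were seen. Ace, encoding angiotensin-converting enzyme, was negative throughout, from -1.19 to -0.04, with a mean of -0.51, and its spots did not agree. Of 29 vasoactive genes measured, 2 were positive on all 6 arrays (Calcrl and Ephx2) and 2 were negative (Ace and Gch1). The 2 that passed, Calcrl and Edn1, were both positive in the mean. The positive and the negative share were each 6.90%, against 3.24% and 3.43% of all named genes.

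Plagl1 encodes a zinc finger protein that restrains proliferation. It read 0.85, 0.42 and 0.54 at 1 week and 2.23, 2.30 and 2.14 at 6 weeks, so every 6-week array was above every 1-week array. Its mean over both times was 1.40 ± 0.12 (SE, limma adjusted p = 0.00237). Btg1, an antiproliferative factor, read 1.53, 0.79 and 1.49 at 1 week and 0.97, 0.62 and 0.38 at 6 weeks, overlapping between times (mean 0.93, limma adjusted p = 0.0238). With Pmaip1, which encodes the p53-induced protein NOXA and had a mean of 0.64, these were the 3 members among 27 genes of growth arrest and apoptosis. The list thus had 11.1% positive and 0 negative throughout, against 3.24% and 3.43% of all named genes. The 27 included 2 that passed, and their means were positive in 14 and negative in 13. The count of 3 became 4 without the dye-reversed arrays (14.8%, against 10.1% of all named genes). It was 0 with either reversal turned and 1 with both turned.

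Klf4, a flow-responsive endothelial transcription factor, varied little between arrays, with 0.91, 0.87 and 0.70 at 1 week and 0.66, 0.89 and 1.00 at 6 weeks. Its mean was 0.86 ± 0.12 (SE), or 1.81-fold (limma adjusted p = 0.0124). Hif1a, the oxygen-regulated subunit of hypoxia-inducible factor, ranged from 0.41 to 1.25 (mean 0.95, limma adjusted p = 0.0111). Both belong to the list of 23 flow-responsive and endothelial transcription factors. Of these, 3 were positive and 1, Sox18, negative on all arrays (13.0% and 4.35%, against 3.24% and 3.43% of all named genes). Without the dye-reversed arrays 5 were positive and 2 negative (21.7% and 8.70%, against 10.1% and 10.3% of all named genes). With either or both reversals turned the positive count was 1, 1 and 0. Klf2, a related flow-responsive factor, was no member: it was negative on all 1-week arrays, from -1.64 to -1.11, and positive on all 6-week arrays, from 0.01 to 0.57.

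Of 43 interstitial matrix and remodelling genes, 7 were positive throughout (16.3%) and 4 negative (9.30%), against 3.24% and 3.43% of all named genes. In the fit, 5 passed as positive and 1 as negative. The median over the 43 was 0.00. Leaving out the dye-reversed arrays gave 10 positive and 8 negative genes (23.3% and 18.6%, against 10.1% and 10.3% of all named genes). The positive count became 0, 1 and 2 with the 6-week, the 1-week or both reversals turned. Postn, the matrix protein periostin, read 0.75, 0.30 and 0.78 at 1 week and 0.99, 1.50 and 3.25 at 6 weeks, highest by far on 6-week replicate 3 (mean 1.43 ± 0.25 SE, limma adjusted p = 0.0343). Aspn, the small proteoglycan asporin, and Ccn2, connective tissue growth factor, had means of 1.08 and 1.15 (limma adjusted p = 0.0128 and 0.0137). Timp3, an inhibitor of matrix proteases, had a mean of 0.68 and ranged from 0.40 to 1.33. Dpt, encoding dermatopontin, went the other way on every array, from -1.66 to -0.15 (mean -0.93, limma adjusted p = 0.0240).

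Of 21 basement membrane genes measured, 2 were negative on all 6 arrays (9.52%, against 3.43% of all named genes) and both passed. None was positive throughout, which for a list this short is near the 3.24% of all named genes. The median of the list was -0.18. The 2 became 5 without the dye-reversed arrays (23.8%, against 10.3% of all named genes). With the 6-week, the 1-week or both reversals turned they became 1, 0 and 1. Col4a2, the alpha-2 chain of collagen IV, read -1.78, -1.66 and -1.77 at 1 week and -0.73, -1.75 and -0.53 at 6 weeks. The 6-week dye reversal was thus at the 1-week level and the other 6-week arrays closer to 0. Its mean was -1.31 ± 0.14 (SE), or 2.48-fold lower (limma adjusted p = 0.00355), and -1.17 without the dye-reversed arrays. Sparcl1, a matrix glycoprotein related to SPARC, ranged from -1.51 to -0.27 with a mean of -0.78 (limma adjusted p = 0.0399).

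Genes that mark endothelial cells went both ways. Of 29 measured, 3 were positive on all 6 arrays (Tek, Cav1 and Clec14a) and 5 negative (Cldn5, Gpihbp1, Eng, Egfl7 and Emcn), or 10.3% and 17.2%, against 3.24% and 3.43% of all named genes. Both counts were 5 without the dye-reversed arrays (17.2% each, against 10.1% positive and 10.3% negative among all named genes). With the 6-week reversal turned 2 were positive and 0 negative, and with the 1-week reversal or both turned none had 1 sign. Cldn5, the tight junction protein claudin-5, read -0.64, -0.87 and -0.53 at 1 week and -0.58, -1.66 and -0.68 at 6 weeks, lowest on the 6-week dye reversal (mean -0.79 ± 0.13 SE, limma adjusted p = 0.0225). Cav1, which shapes caveolae, ranged from 0.44 to 1.08 with a mean of 0.69. Clec14a, an endothelial surface lectin, ranged from 0.44 to 1.35 with a mean of 0.81 (limma adjusted p = 0.0269 and 0.0195). The most widely used markers were not members. Pecam1 had a mean of 0.30, Cdh5 0.35 and Kdr -0.31, each with both signs among the arrays, and Nos3, endothelial nitric oxide synthase, had a mean of -0.08.

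Tmem88, a membrane protein, and Igfbp6, which binds insulin-like growth factors, were the negative genes farthest from 0 on their smallest array. Tmem88 read -1.28, -1.34 and -0.66 at 1 week and -0.98, -1.41 and -0.84 at 6 weeks (mean -1.06 ± 0.14 SE, limma adjusted p = 0.0124). Igfbp6 read -2.14 on the 1-week dye reversal and between -0.86 and -0.65 on the other arrays, and its mean of -0.97 did not pass (limma adjusted p = 0.0599). Igfbp7, a related secreted protein abundant in vessels, was between -0.93 and -0.66 at 1 week and between -0.24 and -0.16 at 6 weeks, without overlap.

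Of the lists with more than 20 measured genes, the respiratory chain and ATP synthase had the largest share of negative members. The shorter fibroblast list, with 17 measured, had 29.4%. Of 58 subunits measured, 15 were negative on all 6 arrays (25.9%, against 3.43% of all named genes) and 0 positive. Among the 15 were Uqcrq and Ndufb4, at -0.00045 and -0.0028 on their smallest arrays. The 2 spots of Cox4i1, another of them, lay up to 5.19 log2 units apart. The median of the 58 genes was -0.23, against -0.01 over all named genes, and each array had a negative median, from -0.36 to -0.16. Without the dye-reversed arrays 19 of the 58 were negative on all 4 remaining arrays, against 10.3% of all named genes, and none was positive. With the 6-week reversal, the 1-week reversal or both turned, 1, 2 and 1 subunits were negative throughout. A single subunit passed the test: Ndufb7 of complex I, at -1.06, -0.99 and -1.03 at 1 week and -0.69, -0.70 and -0.33 at 6 weeks (mean -0.77 ± 0.12 SE, limma adjusted p = 0.0183). Ndufs7, also of complex I, and Atp5j2 and Atp5l of ATP synthase had means of -0.71, -0.73 and -0.66 and did not pass (limma adjusted p = 0.0517, 0.0575 and 0.0621). Uqcc2, an assembly factor of complex III outside the list, had a mean of -0.94 (limma adjusted p = 0.0128).

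Ribosomal protein genes also had negative members. Of 65 measured, 9 were negative on all arrays (13.8%, against 3.43% of all named genes) and 1 positive, and 6 passed, all negative. Without the dye-reversed arrays 13 were negative on the remaining 4, against 10.3% of all named genes, while 2 were negative with the 6-week reversal turned, 1 with the 1-week reversal turned and 1 with both turned. Their median was -0.40 at 1 week and -0.09 at 6 weeks, and array medians ran from -0.43 to 0.01. Rps15, Rpl29 and Rpl37a passed and were members, with means of -0.73, -0.65 and -0.60 (limma adjusted p = 0.0307, 0.0361 and 0.0421). Rpl29 read -0.87, -1.20 and -1.0 at 1 week and -0.03, -0.27 and -0.41 at 6 weeks. Rps18 passed without being a member: it was at -2.38, -2.18 and -2.20 at 1 week and at 0.00, -0.63 and 0.05 at 6 weeks. Ribosomal proteins have many near-identical pseudogene copies, so their probes may not be specific. Eif3k, a subunit of initiation factor 3, was also farther from 0 at 1 week, with a fitted -1.30 against -0.23 at 6 weeks. Of 35 proteasome genes, 4 were negative throughout (11.4%, against 3.43% of all named genes) and 1 positive (2.86%, against 3.24%), and 0 passed. Psmb4 had a mean of -0.43 and Psma1 of 0.45.

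**Figure D3:**
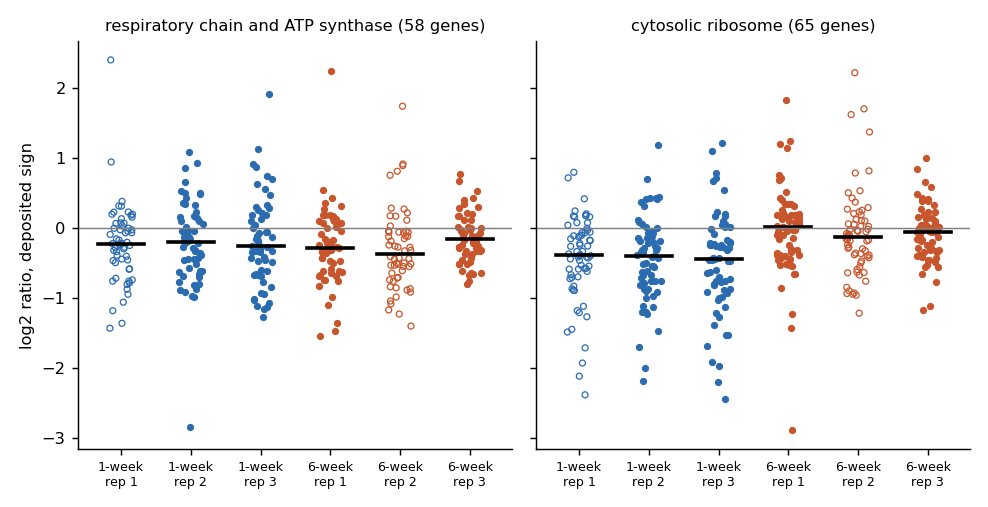
Each point is the log2 ratio of 1 gene on 1 array (vertical axis), by exposure time and replicate (horizontal axis), for 58 respiratory chain and ATP synthase genes and 65 cytosolic ribosomal genes; open symbols mark the dye reversals and black bars the median. Respiratory chain medians lie below 0 on all 6 arrays, whereas ribosomal medians lie near -0.4 at 1 week and between -0.13 and 0.01 at 6 weeks.

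Of 34 NRF2 and glutathione genes, 0 were positive and 6 negative on all 6 arrays (17.6%, against 3.43% of all named genes). The mean was positive in 12 of the 34 and negative in 22, and the median was -0.07. Without the dye-reversed arrays 9 were negative and 3 positive on the remaining 4 (26.5% and 8.82%, against 10.3% and 10.1% of all named genes). The negative count became 1 with the 6-week reversal turned, 0 with the 1-week reversal turned, and 2 with both turned, when 2 were positive. Tkt, the pentose phosphate enzyme transketolase, ranged from -1.23 to -0.49 (mean -0.80, limma adjusted p = 0.0361). Gstm1, a glutathione transferase, ranged from -0.95 to -0.42 (mean -0.63, limma adjusted p = 0.0413). Hmox1, haem oxygenase 1, was between -1.19 and -0.05 and did not pass (limma adjusted p = 0.146). Mt2, the metal-binding metallothionein 2, read -1.06, -1.19 and -1.65 at 1 week and -0.51, -1.11 and -0.42 at 6 weeks (mean -0.96, limma adjusted p = 0.0135). Mt2 is also on the list of 17 glucocorticoid-induced genes, where it was the 1 gene negative on all 6 arrays (5.88%, against 3.43% of all named genes). On that list 2 genes, Tsc22d3 and Klf9, were positive throughout (11.8%, against 3.24%). A part of glucocorticoids was not tested.

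Of 10 aryl hydrocarbon receptor targets, 1 was positive on all 6 arrays (10%, against 3.24% of all named genes) and 0 negative. Cyp1b1, which oxidises polycyclic hydrocarbons, read 1.30, 0.08 and 0.40 at 1 week and 0.85, 1.57 and 0.43 at 6 weeks, highest on the 2 dye reversals. Its mean of 0.71 ± 0.20 (SE) did not pass (limma adjusted p = 0.128), and it was 0.44 without the dye-reversed arrays and -0.12 with both turned. Cyp1a1, the classical target, had values of both signs between -0.21 and 0.28, with a mean of -0.03.

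Of 36 lipid genes measured, 5 were negative throughout (13.9%, against 3.43% of all named genes) and 1 positive, and 3 passed, all negative. The list median was 0.06 at 1 week, with array medians from -0.04 to 0.03, and -0.35 at 6 weeks. The negative count was 5 without the dye-reversed arrays (13.9%, against 10.3% of all named genes). It was 8 without 1-week replicate 3 (22.2%, against 4.93%), and 0 with the 6-week reversal, the 1-week reversal or both turned. Fasn, fatty acid synthase, read -0.74, -0.36 and -0.49 at 1 week and -1.16, -1.41 and -1.41 at 6 weeks, so that no array overlapped between times (mean -0.94, limma adjusted p = 0.00940). Mgll, monoglyceride lipase, was between -0.24 and -0.11 at 1 week and between -1.51 and -1.08 at 6 weeks (mean -0.75, limma adjusted p = 0.0166). Fabp5, a fatty acid carrier of endothelium and skin, read -1.61, -1.06 and -1.15 at 1 week and -0.21, -1.08 and -0.52 at 6 weeks, overlapping between times (mean -0.93, limma adjusted p = 0.0128). Of 13 adipocyte markers, 1 was negative throughout (7.69%, against 3.43% of all named genes) and 0 passed.

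Ifi27l2a, an interferon-inducible gene, was the most negative member by mean together with Col4a2, at -1.50, -1.98 and -1.39 at 1 week and -1.18, -1.59 and -0.63 at 6 weeks (mean -1.31 ± 0.15 SE, limma adjusted p = 0.00731). It was the only one of 34 interferon and antigen presentation genes to pass, and 4 were negative (11.8%, against 3.43% of all named genes) and 1 positive on all arrays. The 4 became 5 without the dye-reversed arrays (14.7%, against 10.3% of all named genes). They became 1 with the 6-week reversal turned, and 0 with the 1-week reversal or both turned. The chemokines Ccl2 and Cxcl12 were negative throughout, with means of -0.70 and -0.60 that did not pass (limma adjusted p = 0.0898 and 0.104). Of 28 activation and leukocyte adhesion genes, 2 were negative and 1 positive throughout (7.14% and 3.57%, against 3.43% and 3.24% of all named genes), and 0 passed.

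**Figure D4:**
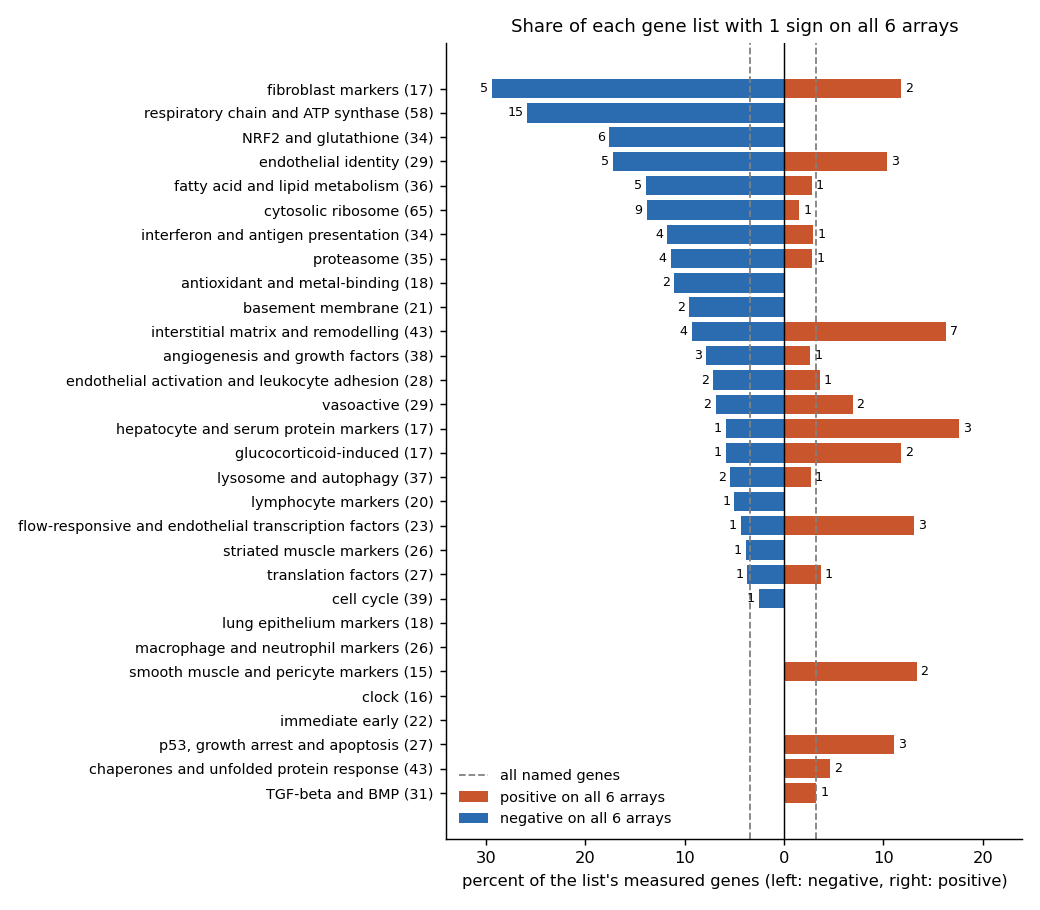
Bars give, for each gene list with at least 15 measured genes (number in brackets), the percent of its genes negative (left) or positive (right) on all 6 arrays, with the count at the bar's end and dashed lines at the 3.43% and 3.24% of all named genes. The respiratory chain has 15 of 58 genes on the negative side and none on the positive side, and the interstitial matrix list has 7 positive genes.

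Markers of other cell types were also among the members, and fewer cells of a type cannot be told apart from less RNA per cell in these sorted bulk samples. Of 17 fibroblast markers, 5 were negative on all arrays (29.4%, against 3.43% of all named genes) and 2 positive (11.8%, against 3.24%). The positive ones were Postn and Aspn, and the negative ones included Dpt and Pi16. The median of the fibroblast list ran from -0.45 to 0.00 over the arrays, so it lay at or below 0 while Postn and Aspn lay above it. On the 4 arrays that are not dye-reversed 6 of the markers were negative and 3 positive (35.3% and 17.6%, against 10.3% and 10.1% of all named genes). The negative count became 0, 1 and 0 with the 6-week, the 1-week or both reversals turned. Of 15 smooth muscle and pericyte markers, 2 were positive throughout (13.3%, against 3.24% of all named genes). These were Kcnj8 and Abcc9, which encode the pore and the regulatory subunit of the vascular potassium channel gated by ATP. Kcnj8 ranged from 0.24 to 1.45 and Abcc9 from 0.09 to 1.42, with means of 0.72 and 0.85. Kcnj8 passed (limma adjusted p = 0.0450), whereas the spots of Abcc9 did not agree. Acta2, smooth muscle actin, was listed at 0 on 1-week replicate 2 and positive on the other 5 arrays, with a mean of 0.80 (limma adjusted p = 0.0364). It too is named after its values were seen. The part of such cells in the matrix results was not tested.

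Serum proteins made by the liver were among the larger members. Of 17 measured, 3 were positive throughout (17.6%, against 3.24% of all named genes) and 1 negative (5.88%, against 3.43%). The list median ran from -0.01 to 0.34 over the arrays. The 3 became 6 without the dye-reversed arrays (35.3%, against 10.1% of all named genes). They became 1, 0 and 2 with the 6-week, the 1-week or both reversals turned. Serpina1c, encoding a mouse alpha-1 antitrypsin, read 0.51, 0.55 and 0.43 at 1 week and 1.47, 2.17 and 2.36 at 6 weeks (mean 1.29, limma adjusted p = 0.00355). Serpina1b is nearly identical in sequence, and their probes may not separate them. Serpina1b had a mean of 1.13, and its spots did not agree. Ahsg, fetuin-A, ranged from 0.72 to 2.0 (mean 1.24, limma adjusted p = 0.00355). Apoc1, an apolipoprotein, was negative throughout, from -2.14 to -0.02, and its spots did not agree. None of 26 macrophage and neutrophil markers, 13 erythroid and platelet markers, 18 lung epithelium markers or 7 lymphatic endothelium markers had 1 sign on all 6 arrays, and 1 of 20 lymphocyte markers did. The share over all named genes was 6.67%, so such counts in lists this short lie near it and say little about these cell types.

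Some members with a same sign at both times were fitted at unlike sizes. No gene passed for that difference in the fit of all features or of agreeing spots. Of the 361 positive members 190 were larger at 1 week, and of the 382 negative members 221 were larger in size at 1 week. The matching share over all named genes was not counted. The difference between 6 weeks and 1 week had an unadjusted p under 0.05 in 34 of the 743 members, while 684 of all 19242 tests (3.55%) did. Without moderation of the variance, 5 genes passed for this difference. Plagl1 was 1.60 ± 0.24 (SE) higher at 6 weeks and Serpina1c 1.60 ± 0.25 (limma adjusted p = 0.134 and 0.149). On the other side Serinc1, a membrane protein linked to serine lipids, read 1.86, 1.79 and 1.89 at 1 week and 0.60, 0.65 and 0.92 at 6 weeks. Mfsd8, a lysosomal membrane transporter, read 1.42, 1.83 and 1.32 against 0.39, 0.29 and 0.29. Both were positive on every array without overlap between times, and their differences of -1.08 and -1.21 did not pass (limma adjusted p = 0.307 and 0.288). Signs that were uniform within each time but opposite between times occurred in 296 of the 11138 named genes.

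**Figure D5:**
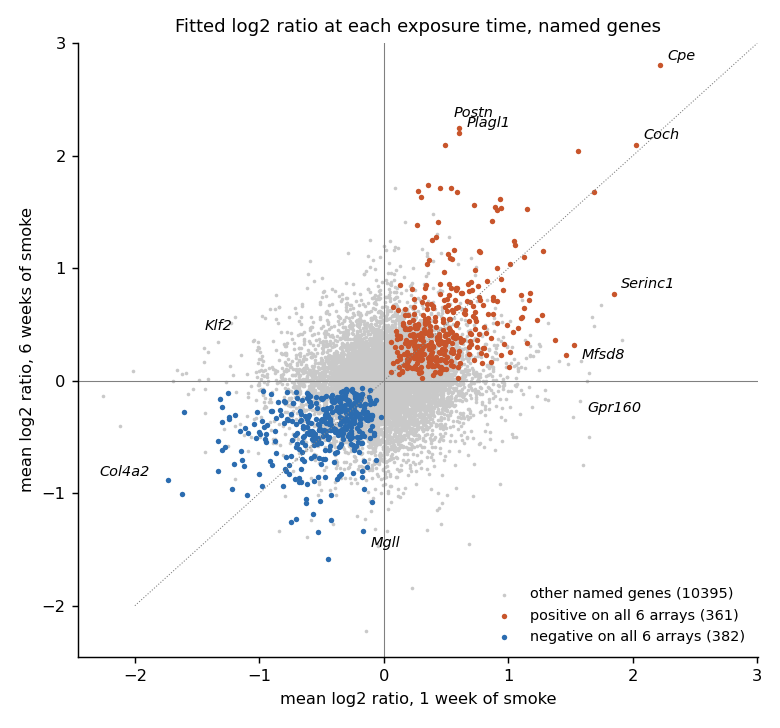
Each point is a named gene at its fitted log2 ratio after 1 week (horizontal axis) and after 6 weeks of smoke (vertical axis), with the 361 genes positive on all 6 arrays in orange, the 382 negative ones in blue and the dotted line marking equal values. Cpe and Coch lie near the line, Plagl1 and Postn far above it and Serinc1 and Mfsd8 far below it, while Klf2 and Gpr160 lie on opposite sides of 0 at the 2 times.

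Promoters were read for members because smoke has known response elements. Members were chosen by their shared sign, which does not show shared regulation. The RefSeq promoter table (GRCm38.p6) held at least 1 promoter for 8849 of the 11138 named genes, including 281 positive and 315 negative members. The window was the 250 bases before the start, searched on both strands for GCGTG, the core of the xenobiotic response element, and for TGACNNNGC, the core of the antioxidant response element. The first was present in 39.4% of the 360 windows of positive members, 42.0% of the 381 of negative members and 38.3% of all 11173 windows. The second was in 13.1%, 9.71% and 11.3%. The median GC content was 58.0%, 58.4% and 57.6%. These shares are descriptions without a test, and a match is not a binding site.

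Windows of 3 positive and 2 negative members follow, chosen from the genes farthest from 0 on all arrays and a regulator that varied little. They are written 5′ to 3′ on the gene's strand, with matches to either motif in capitals.
Coch, chr12:51593091-51593340, plus strand: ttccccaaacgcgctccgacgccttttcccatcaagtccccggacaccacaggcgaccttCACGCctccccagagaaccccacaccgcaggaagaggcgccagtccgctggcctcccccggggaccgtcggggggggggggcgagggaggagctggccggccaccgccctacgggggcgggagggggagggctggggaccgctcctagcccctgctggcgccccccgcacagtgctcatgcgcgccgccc
Calcrl, chr2:84425267-84425516, minus strand: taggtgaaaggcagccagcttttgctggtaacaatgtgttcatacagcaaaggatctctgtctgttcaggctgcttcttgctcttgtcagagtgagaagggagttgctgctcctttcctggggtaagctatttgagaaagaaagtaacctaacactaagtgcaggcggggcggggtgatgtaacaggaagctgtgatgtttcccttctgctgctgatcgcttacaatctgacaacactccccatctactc
Klf4, chr4:55532476-55532725, minus strand: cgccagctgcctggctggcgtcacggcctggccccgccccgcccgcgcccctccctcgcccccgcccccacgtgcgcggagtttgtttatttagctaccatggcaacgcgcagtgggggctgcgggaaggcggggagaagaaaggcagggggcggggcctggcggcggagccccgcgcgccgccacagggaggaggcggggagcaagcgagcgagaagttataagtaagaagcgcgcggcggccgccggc
Cldn5, chr16:18776597-18776846, plus strand: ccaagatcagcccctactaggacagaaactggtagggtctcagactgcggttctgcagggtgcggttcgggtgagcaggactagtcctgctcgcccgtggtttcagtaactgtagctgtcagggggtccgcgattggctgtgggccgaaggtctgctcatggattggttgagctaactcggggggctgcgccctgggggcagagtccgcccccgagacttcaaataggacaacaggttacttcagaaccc
Igfbp6, chr15:102143936-102144185, plus strand: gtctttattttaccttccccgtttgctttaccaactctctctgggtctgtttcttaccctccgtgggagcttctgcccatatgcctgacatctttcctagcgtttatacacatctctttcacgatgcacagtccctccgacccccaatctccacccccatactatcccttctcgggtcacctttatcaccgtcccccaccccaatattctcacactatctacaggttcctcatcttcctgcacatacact
The Coch window holds 1 match to GCGTG, on its opposite strand, and none to TGACNNNGC. Neither motif occurs in the windows of Calcrl, Klf4, Cldn5 and Igfbp6. In base composition the windows range from 48.4% GC in Calcrl to 74.8% in Coch, with 3 and 24 CpG pairs respectively.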

How the data were processed

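RNA of sorted mouse endothelial cells was hybridised in 2 channels on 6 arrays. The authors' deposited table gives 1 log2 ratio per feature and array, for 32448 features. Scanner, background correction, normalization, dye of each channel and direction are not given in the sources used here. Per the file itself, values are log2 of folds rounded to hundredths and each array's median is at a fold of 1.00, deposited as 3e-07 and treated as 0 with no sign. The base and scale are thus read from the values. Intensities were not used here, so dim spots could not be filtered, and precision is limited by how few arrays there are.

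A probe table gave 1 symbol to 24344 features and several to 98, and 8006 were absent from it. Spots were averaged per symbol (10180 genes with 2 spots, 958 with more). The deposited sign was kept. The 6-week dye-swap pair was averaged to 1 replicate, leaving 5 replicates, 3 at 1 week and 2 at 6 weeks. Limma 3.58.1 (R 4.3.3; lmFit, eBayes) fitted 1 coefficient per exposure time with 3 residual degrees of freedom. The mean of both, each time and the difference were tested two-sided at a Benjamini-Hochberg adjusted p of 0.05, the adjustment covering 19242 tests, 8104 of them on unnamed features. The fit was repeated on 5625 genes for which no array showed spots more than 1 log2 unit apart. It was tested on simulated data, of which no setting or outcome is given here, so that test lends the calls no weight. An SE is from the agreeing-spot fit where the gene is in it.

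The members, the 34 gene lists and the choice of fits were made with earlier results of these data known. Genes were named by rule: those with 1 sign on all arrays that had the smallest p (20 per sign) or the largest smallest size (12 per sign), up to 4 per list by p, those just inside and outside the sign rule, genes differing most between times, and Cyp1a1, Cyp1b1, Klf2, Klf4, Nos3, Pecam1, Cdh5 and Kdr whatever their values. Alternatives covered sign, scale, dye, averaging, spots, variance model and leaving out each array. Promoter sequences are from RefSeq.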

Additional observations from a re-analysis of the deposited data

Results flagged for a closer look

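Klf2, Gpr160 and Polr2m had 1 sign on all 3 arrays of 1 exposure time and the other sign on all 3 arrays of the other time, which keeps them out of the sustained response. Klf2, the flow-responsive transcription factor, read -1.64, -1.11 and -1.26 at 1 week and 0.57, 0.01 and 0.40 at 6 weeks, a difference of 1.68 (limma adjusted p = 0.134). Gpr160, an orphan receptor, read 1.26, 1.87 and 1.59 at 1 week and -0.10, -0.28 and -0.16 at 6 weeks, a difference of -1.75 (limma adjusted p = 0.134). Polr2m read 0.91, 0.57 and 1.21 against -1.0, -0.30 and -0.58, a difference of -1.51 (limma adjusted p = 0.232). These adjusted p-values are of the difference itself among genes with agreeing spots, and none passed. Such opposite signs were found in 296 of the 11138 named genes, against 743 with 1 sign on all 6 arrays.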

How the results depend on the processing

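In the mean of both times over all tests, the count of genes past the threshold was 0 and stayed 0 under other signs, scaling, averaging and dye settings, except for 6 genes with each array its own replicate, 5 among named genes alone, 3 without moderation, 103 with spots within 1 log2 unit and 102 within 0.5. At 1 week it was 2 among named genes alone, 102 and 99 with those spot limits. At 6 weeks it was 5 without moderation, 12 and 14. For the difference between times it was 5 without moderation and 1 with spots within 0.5.

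Among agreeing spots the 103 calls became 0 with the 6-week or both reversals turned, 37 without the dye-reversed arrays, 239 with a dye term, 49 with the spot nearest 0, 0 without moderation, and 0 to 138 when each array was left out. The 0 came without 6-week smoke replicate 3. The cause was not tested. The count of 743 genes with 1 sign became 465 with the 6-week reversal turned. Of the 743, 484 had spots within 1 log2 unit, 210 had every spot of that sign, and 330 exceeded 0.1 on every array. Fewer arrays gave more: 2279 genes without the dye-reversed arrays and 1009 to 1228 when each array was left out.

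Of the genes named, these changed sign. Kdr became 0.12 with the 6-week reversal turned. With both turned Cyp1b1 became -0.12, Ccl2 0.010, Klf2 0.051, Polr2m -0.086, Kdr 0.19 and 1700025H01Rik 0.052. With the spot nearest 0, Cyp1a1 became 0.079, Cdh5 -0.084, Nos3 0.0036, 2700062C07Rik -0.34 and 1700025H01Rik 0.053. With each array left out, Cyp1a1 ranged from -0.10 to 0.0038, changing sign without 1-week replicates 2 or 3, and Nos3 from -0.16 to 0.013, changing sign without 1-week replicate 2.

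No paired analysis was possible because replicate numbers were given in accession order and tie no array of 1 time to an array of the other. Centring was not run, since every array's median was already at 0. A filter on dim spots was not possible without intensities.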

Other observations

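Some features without a gene name in the table used here stood as far from 0 as the leading named genes. Feature 16688 read 2.85, 2.78 and 2.46 at 1 week and 2.44, 2.28 and 3.52 at 6 weeks, a mean of 2.82, above that of Cpe. The neighbouring features 18053 and 18054 read -2.38 and -2.33 in 1-week replicate 1, and their means of -1.43 and -1.49 lay below that of every named member. In both, all 1-week values were under -1.9 and all 6-week values above -0.8, so they had 1 sign throughout and no overlap between times.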
